A study of Mus musculus with 24 samples.

Results

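The DNAJ (HSP40) co-chaperone family was taken as every protein-coding mouse gene whose symbol starts with Dnaja, Dnajb or Dnajc followed by a number, which gave 45 of the 52350 genes counted: 4 of class A, 13 of class B and 28 of class C. Transcripts were measured by poly-A-selected RNA sequencing of hearts from wild-type male C57Bl/6 mice, 12 weeks old, in a lighting cycle with 12 h each of light and dark. The 4 groups held 6 mice each: sedentary mice at ZT0, when the lights come on and the rest phase of a mouse begins (ZT0-SED), mice that ran on a treadmill at ZT0 (ZT0-EX), and the same pair at ZT12, when the lights go off and activity begins (ZT12-SED and ZT12-EX). All runners were accustomed to the treadmill and ran once, for 60 min on a belt at 0% grade moving at 10 m/min. How long after the run the heart was taken was not stated in the sources used here. Replicates 1 to 3 of each group were sequenced on flow cell 1 and replicates 4 to 6 on flow cell 2, so each comparison could also be made within a flow cell, 3 mice against 3.

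DNAJ proteins carry a J domain, which stimulates the ATPase activity of HSP70 chaperones and so sets when and where HSP70 grips a client protein. Class A members share the full layout of the bacterial protein DnaJ, class B members have the J domain and the glycine- and phenylalanine-rich stretch but no zinc finger, and class C members have little in common beyond the J domain. Members sit in the cytosol, the endoplasmic reticulum, the mitochondria, on vesicles or on ribosomes, each with the HSP70 of that place. Dnajb1 is a classical target of HSF1, the transcription factor of the heat shock response, and with the exchange factor Bag3, HSP70 and DNAJB members take part in the quality control of sarcomere proteins.

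Library totals ran from 9697334 to 23067191 counts, which for Dnajb1 meant 85 to 1479 reads. Transcripts of the mitochondrial genome took 25.4% to 55.1% of counts on flow cell 1 and 2.71% to 23.7% on flow cell 2. The 10 cardiomyocyte markers summed to at least 30730 CPM (read counts relative to the TMM-scaled library total) in each of the 24 libraries. The 12 markers of fast skeletal muscle, all of them detected, summed to between 13.4 and 3647 CPM and were high in 6 libraries of flow cell 2, which were ZT0-EX 4, 5 and 6 and replicate 6 of each other group. Mean correlation with the other libraries was lowest for ZT12-EX 4 and for replicates 1 and 2 of ZT12-SED. The effect of leaving these libraries out is given below.

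Of the 45 members, 38 had enough counts to be tested: 4 of 4 in class A, 9 of 13 in class B and 25 of 28 in class C. The 7 members under the filter were Dnajb3, Dnajb7, Dnajb8, Dnajb13, Dnajc5b, Dnajc5g and Dnajc22. Dnajb13, known from sperm flagella and motile cilia, had 51 reads over all 24 libraries, and Dnajb3, a testis gene, had 100. Dnajb8, another testis gene, had 0 counts in all 24 libraries, which allows up to 0.13 to 0.575 CPM, depending on the library. The cysteine string protein paralogs Dnajc5b and Dnajc5g had 88 reads and 1 read, whereas Dnajc5 itself, a vesicle chaperone, averaged 55.8 CPM.

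Levels were compared between genes as CPM per kb of exon, with the exons of all annotated transcripts of a gene merged. Below the top member, the order and the class shares depend on this scaling. By mean CPM, Dnaja1 (175) stood above Dnajc8 (76.7), and Dnajb4 (126) above Dnajb2 (67.65) and Dnajb9 (49.8). Dnaja2, a cytosolic class A member that works with the constitutive HSP70 Hspa8, was the most abundant at 90.7 ± 40.5 CPM per kb (SD, n = 24). Dnajc8, which associates with the spliceosome, followed at 30.0 ± 5.26, Dnajc19, a member of the inner mitochondrial membrane whose human counterpart is mutated in a cardiomyopathy with ataxia, at 27.6 ± 15.0, and Dnaja3, the mitochondrial class A member, at 26.4 ± 4.35. The ranges of the last 3 genes overlapped, so their order is not resolved beyond the spread between hearts. In class B the highest means over all hearts were those of Dnajb9, a regulator of the endoplasmic reticulum HSP70 Hspa5, at 19.6 ± 12.1 CPM per kb, and Dnajb2, a ubiquitin-binding neuronal and muscle form, at 15.9 ± 7.09. Their order is not resolved, since the medians were 15.4 for both and Dnajb2 was the higher in ZT0-SED (16.3 against 14.0). Dnajb1 stood at rank 17 with 10.4 ± 5.50 CPM per kb. The lowest tested member was Dnajc6, the neuronal auxilin that uncoats clathrin vesicles, at 0.153 CPM per kb.

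**Figure D1:**
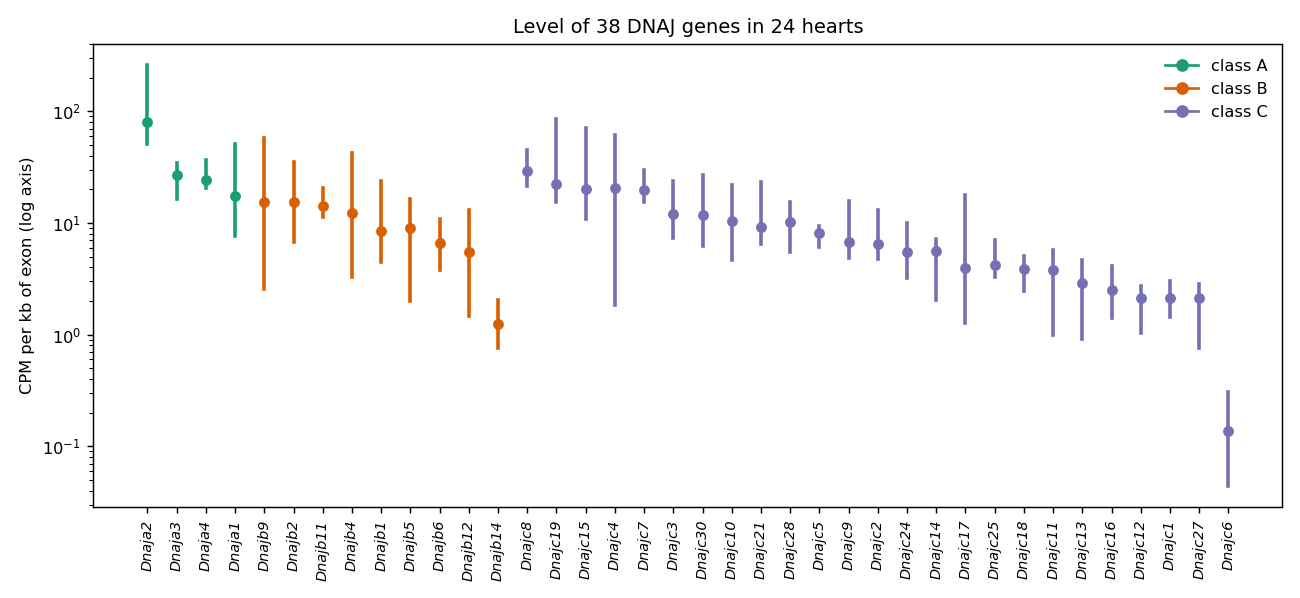
Level of each of the 38 tested DNAJ genes in CPM per kb of exon on a log axis, ordered by class and mean level. Points are the median of 24 hearts and lines run from the lowest to the highest heart; Dnaja2 stands highest with a median of 79.7 and Dnajc6 lowest.

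Summed over members, class C supplied 52.6% ± 3.29 (SD, n = 6) of the family's CPM per kb in ZT0-SED, class A 29.3% ± 2.45 and class B 18.0% ± 1.16. The class B share was 22.4% ± 1.19 in ZT0-EX, 17.7% ± 1.06 in ZT12-SED and 20.3% ± 1.21 in ZT12-EX. In CPM per kb, class B summed to 83.4 ± 5.80 in ZT0-SED and 112 ± 12.9 in ZT0-EX. The lowest exercised heart at ZT0 (95.4) was above the highest sedentary heart (91.5). Dnajb1 averaged 6.38 CPM per kb in ZT0-SED and 15.7 in ZT0-EX. Means were also higher for Dnajb4 (8.80 and 13.8), Dnajb9 (14.0 and 18.4), Dnajb2 (16.3 and 20.1) and Dnajb5 (8.79 and 12.1). All 9 tested members of class B had positive log2 fold changes at ZT0, with a median of 0.352, and 1 passed. Of all 15294 genes tested, 7485 were positive. The sum alone does not tell a rise shared by the class from one of a few members. Every ZT0-EX library of flow cell 2 had skeletal muscle transcripts, and their part in the sum was not tested. A sum over a class has no share over all genes to be read against. At ZT12 the class B sums of the groups overlapped, at 79.2 to 139.9 in sedentary and 92.2 to 124 in exercised mice. In whole tissue, fewer cells of a type and less RNA per cell cannot be told apart.

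Exercise raised 1 of the 38 tested members at each time of day, and it was Dnajb1 both times. At ZT0 the sedentary hearts held 16.8 CPM at the lowest, 20.3 at the median and 25.1 at the highest, and the exercised hearts 29.0, 46.6 and 76.6. At ZT12 the corresponding values were 14.5, 16.7 and 21.8 CPM in sedentary hearts and 31.0, 43.7 and 64.5 in exercised hearts. Each exercised heart was above each sedentary heart of the same time of day, on both flow cells. The fitted log2 fold change of Dnajb1 (ENSMUSG00000005483, chromosome 8) was 1.30 ± 0.19 (SE, n = 6 per group; edgeR quasi-likelihood test, adjusted p = 0.000317) at ZT0, or 2.46-fold, and 1.35 ± 0.19 (adjusted p = 0.00146) at ZT12, or 2.54-fold. Of all 15294 genes tested, 1.08% passed at ZT0 and 0.294% at ZT12, and 1 of 38 is too few to read against these rates for the family as a group. At ZT0 the difference of mean log2 CPM was 1.21 among the hearts of flow cell 1 and 1.26 among those of flow cell 2. At ZT12 these values were 1.17 and 1.50. Folds given below as bare numbers are log2 fold changes.

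The exercise effect on Dnajb1 was not separable between the times of day. Its effect at ZT12 exceeded that at ZT0 by 0.05 ± 0.27 on the log2 scale (adjusted p = 0.945), with a 95% interval from -0.51 to 0.61. Over the whole family the difference between the exercise effects passed for 0 of 38 members (smallest adjusted p = 0.571), as it did for 0% of all genes. At an unadjusted p under 0.05 there were 3 of 38 members, a share close to the 8.02% of all genes. They were Dnajb4 (-0.88), Dnajc17 (1.15) and Dnajc28 (-0.55). Without the libraries with skeletal muscle transcripts, the Dnajb1 folds were 1.24 at ZT0 (adjusted p = 0.0383) and 1.34 at ZT12 (adjusted p = 0.0135), both past the threshold. On a single flow cell, where 3 mice stood against 3, the adjusted p for Dnajb1 ranged from 0.0866 to 0.142 with folds of 1.20 to 1.55.

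**Figure D2:**
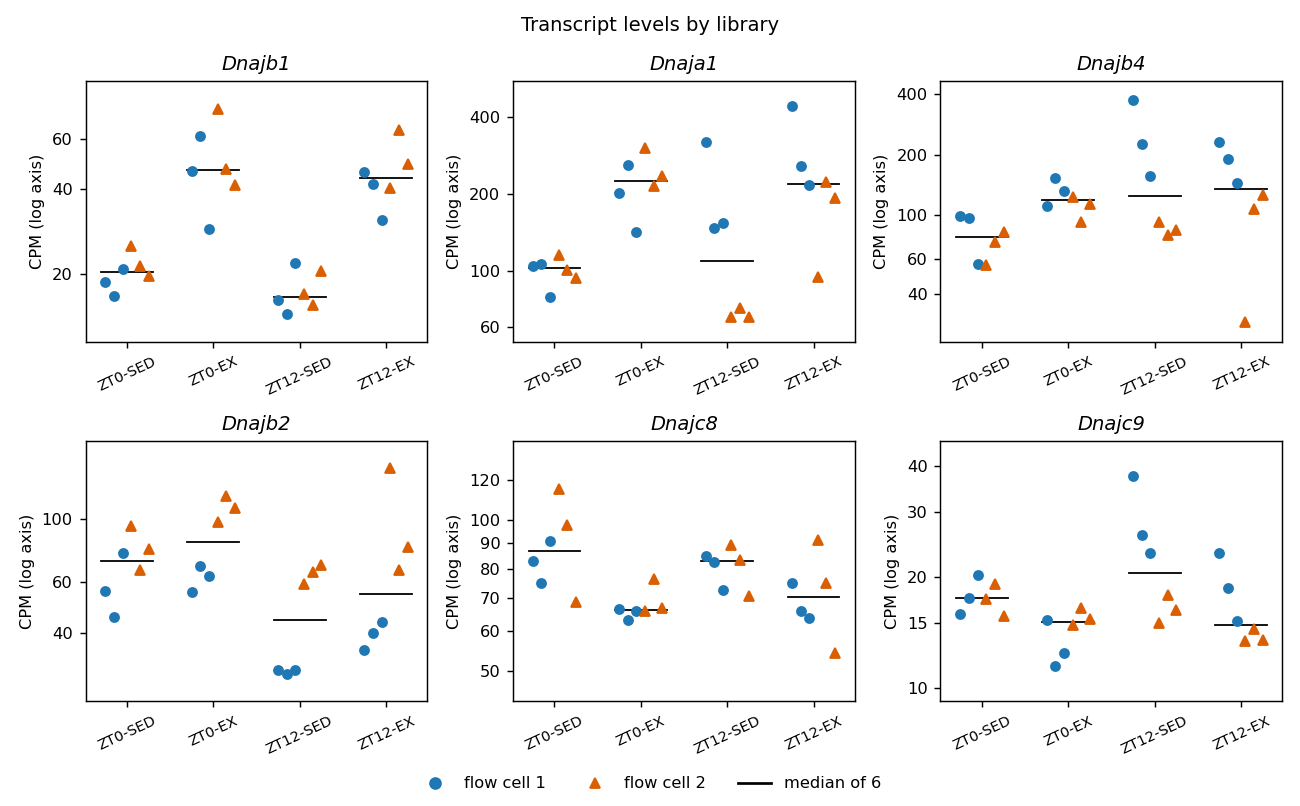
CPM on log axes in each of the 24 hearts for Dnajb1, Dnaja1, Dnajb4, Dnajb2, Dnajc8 and Dnajc9, by group, with circles for flow cell 1, triangles for flow cell 2 and a line at the median of 6. The Dnajb1 groups are separate at both times of day, whereas Dnajb2 splits by flow cell within every group but ZT0-SED.

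Dnaja1, a cytosolic class A co-chaperone of Hspa8, had the next largest fold at both times and did not pass at either. At ZT0 its level was 78.8 CPM at the lowest, 102 at the median and 115 at the highest in sedentary hearts, and 142, 224 and 301 in exercised hearts. These groups did not overlap, which held for 2 members (Dnajb1 and Dnaja1) and for 0.987% of all genes with the exercised hearts higher. The fold was 1.19 ± 0.32 on the log2 scale (adjusted p = 0.0769). At ZT12 the values were 65.7, 109 and 318 CPM in sedentary hearts and 94.5, 219 and 442 in exercised hearts, so the groups overlapped, and the fold was 0.85 ± 0.32 (adjusted p = 0.238). There, groups without overlap were found for Dnajb1 alone among the members and for 0.17% of all genes. Averaged over both times of day, 2 members rose, Dnajb1 by 1.32 ± 0.13 (adjusted p = 1.25e-06) and Dnaja1 by 1.02 ± 0.22 (adjusted p = 0.0115), where 2.24% of all genes passed.

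The value of Dnaja1 depended on which libraries entered. Without the libraries with skeletal muscle transcripts, its ZT0 log2 fold change was 0.62 (adjusted p = 0.734). Its average over both times was then 0.68 (adjusted p = 0.185). Those libraries include every ZT0-EX library of flow cell 2. Within flow cell 1, where no library had high muscle markers, its 3 exercised hearts at ZT0 held 142, 201 and 259 CPM and its 3 sedentary hearts 78.8, 104 and 106. Without the 3 least correlated libraries it passed at both times, with folds of 1.18 (adjusted p = 0.00374) and 1.52 (adjusted p = 0.011).

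The regulatory stretches upstream of these genes are shown because Dnajb1 and Dnaja1 had the largest exercise folds of the family, and HSF1 binds inverted repeats of the unit GAA (heat shock elements). RefSeq windows from 250 bases before to 50 bases after a transcription start (GRCm38.p6) were held for 37 of the 45 members, 50 windows in all. They were searched on both strands for GAANNTTCNNGAA, GAANNTTC and TTCNNGAA, the last pair being contained in the first. The 250 bases before the first listed start of Dnajb1 (chr8:83607925-83608174, plus strand) and before the first start of Dnaja1 (chr4:40722218-40722467, plus strand) read, with matches in capitals:

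Dnajb1: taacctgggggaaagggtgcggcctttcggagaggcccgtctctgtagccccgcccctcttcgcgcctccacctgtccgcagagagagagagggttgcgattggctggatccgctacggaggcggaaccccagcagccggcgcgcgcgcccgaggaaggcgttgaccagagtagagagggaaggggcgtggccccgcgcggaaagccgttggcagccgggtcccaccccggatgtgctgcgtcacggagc

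Dnaja1: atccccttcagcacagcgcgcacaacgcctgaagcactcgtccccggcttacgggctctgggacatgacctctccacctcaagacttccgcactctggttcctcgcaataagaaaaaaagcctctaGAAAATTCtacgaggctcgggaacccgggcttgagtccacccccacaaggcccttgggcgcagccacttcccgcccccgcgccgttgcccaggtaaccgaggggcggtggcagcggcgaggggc

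Dnajb1 had no match to these letters in either of its 2 windows, and Dnaja1 had GAANNTTC at bases -124 to -117. The letters GAANNTTC were found in 7.86% of all 32851 windows and in 6 of the 50 member windows (12%), which belong to Dnaja1, Dnaja4, Dnajb6, Dnajc27 and Dnajc5g. TTCNNGAA was in 8.52% of all windows and in 4 member windows (8%), of Dnajb4, Dnajb6 and Dnajc10. The longer GAANNTTCNNGAA was in 0.603% of all windows and in 2 member windows, both of Dnajb6, which share the site. Shorter stretches with their matches in capitals are given for the 3 other cytosolic members that had one: Dnaja4 (chr9:54699459-54699514, plus strand), Dnajb4 (chr3:152193846-152193905, minus strand) and Dnajb6 (chr5:29735843-29735872, plus strand). Dnaja2, Dnajb2 and Dnajb5 had windows without a match.

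Dnaja4: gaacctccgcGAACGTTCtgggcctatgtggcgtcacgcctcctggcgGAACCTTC

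Dnajb4: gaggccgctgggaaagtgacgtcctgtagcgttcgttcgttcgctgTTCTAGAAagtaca

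Dnajb6: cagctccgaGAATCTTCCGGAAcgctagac

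The stretches of Dnaja4 and Dnajb4 lie before their second listed start. The inducible HSP70 genes Hspa1a and Hspa1b each had GAANNTTC at bases -104 to -97. For other factors, the E-box CACGTG, which clock and MYC-family factors bind, was in 4 member windows (8%; Dnajb9, Dnajc1, Dnajc16 and Dnajc8) and in 7.15% of all windows, and the endoplasmic reticulum stress element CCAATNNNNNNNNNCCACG was in 1 member window, of Dnajc3, and in 0.119% of all windows. The glucocorticoid receptor letters GNACANNNTGTNC were in 0 of the 50 member windows and in 0.475% of all windows. A match is a description of the letters, and a window without one says nothing about binding elsewhere.

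The other cytosolic and nuclear members of classes A and B were Dnaja2, Dnaja4, Dnajb2, Dnajb4, Dnajb5 and Dnajb6. With Dnaja1 and Dnajb1 all 8 had positive folds at ZT0, with a median of 0.36 against -0.01 over all genes, and 1 passed. At ZT12 these 8 had 5 positive folds and a median of 0.24, against 0.06 over all genes. Over all 38 members, 27 folds were positive and 11 negative at ZT0, with a median of 0.12, and 18 were positive and 20 negative at ZT12, with a median of -0.02. Over all 15294 genes tested, 7485 folds were positive and 7809 negative at ZT0, and 8581 were positive and 6713 negative at ZT12. Members share the same 24 libraries, so these counts are descriptions without a test. By class, the ZT0 medians were 0.24 for A, 0.35 for B and 0.05 for C.

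Dnajb4, a cytosolic co-chaperone whose human counterpart is mutated in a myopathy, had the smallest p among class B members that did not pass at ZT0. It ranged from 55.8 to 98.3 CPM with a median of 77.7 in sedentary hearts and from 92.6 to 153 with a median of 118 in exercised hearts. A single exercised heart lay within the sedentary range, and the fold was 0.64 ± 0.30 (adjusted p = 0.472). At ZT12 the fold was -0.23 ± 0.30 (adjusted p = 0.683), and the values ran from 79.6 to 373 CPM in sedentary and from 29.0 to 230 CPM in exercised hearts. Without the 3 least correlated libraries, which hold both of these extremes, Dnajb4 passed at ZT0 with 0.64 (adjusted p = 0.0344), and without the libraries with skeletal muscle transcripts its fold was 0.31 (adjusted p = 0.851).

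Dnaja4, a cytosolic class A member, and Dnajb5, which binds the histone deacetylase HDAC4 in heart muscle, had their highest values in libraries with high muscle markers. The 6 libraries with skeletal muscle transcripts include every ZT0-EX library of flow cell 2, and the other 6 libraries there include no ZT0-EX library. The ranges over these sets therefore mix muscle transcripts with exercise at ZT0. In ZT0-SED, ZT12-SED and ZT12-EX, replicate 6 can be set beside replicates 4 and 5 of its own group and flow cell. Dnaja4 measured 87.9 to 131 CPM in the 6 libraries with skeletal muscle transcripts and 73.8 to 92.0 CPM in the other 6 libraries of flow cell 2. Dnajb5 measured 69.7 to 96.8 CPM in the former and 46.6 to 72.7 CPM in the latter. In ZT0-SED, ZT12-SED and ZT12-EX, replicate 6 held 96.45, 87.9 and 113 CPM of Dnaja4. Replicates 4 and 5 there held at most 89.7, 80.2 and 92.0 CPM. For Dnajb5 replicate 6 held 69.7, 71.1 and 82.95 CPM, and the other replicates at most 64.6, 57.2 and 72.7 CPM. Each of these rests on 1 heart with muscle transcripts per group. Their ZT0 folds, 0.33 ± 0.14 (adjusted p = 0.428) and 0.39 ± 0.23 (adjusted p = 0.541), did not pass, and the part of muscle tissue in them was not tested. Other members split between these sets without overlap. Dnajc16 (18.5 to 26.7 against 11.1 to 16.8 CPM) and Dnajc27 (10.9 to 12.6 against 4.54 to 9.49 CPM) were higher with skeletal muscle transcripts. Dnajc15 (71.3 to 108 against 128.5 to 408 CPM) and Dnajc24 (4.36 to 7.45 against 7.68 to 11.7 CPM) were lower. The part of muscle tissue in their ZT0 folds was not tested either.

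**Figure D3:**
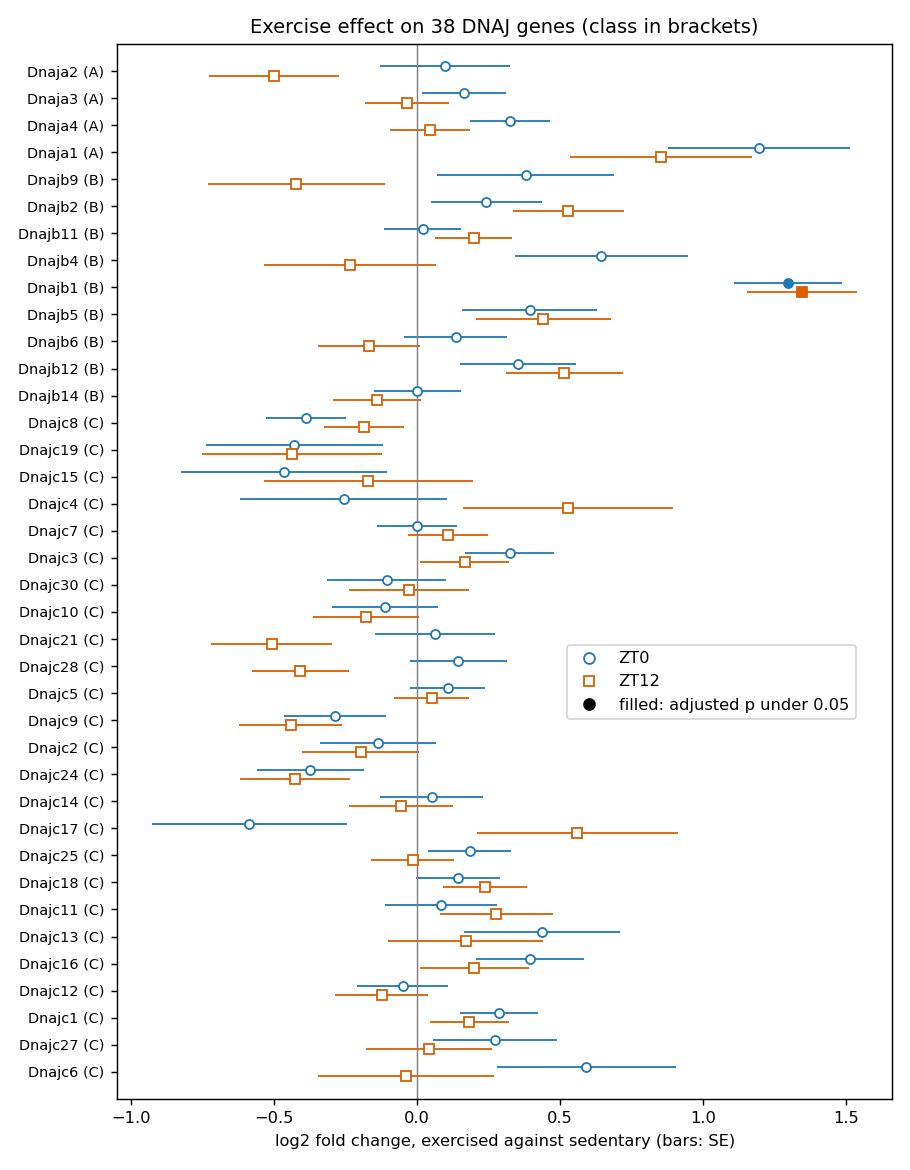
Log2 fold change with its standard error, exercised against sedentary, for the 38 tested members at ZT0 (circles) and ZT12 (squares), ordered by class and level; filled symbols have an adjusted p under 0.05. Dnajb1 is filled at both times (1.30 and 1.35), and Dnaja1 follows with open symbols.

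None of the 10 members tied to the endoplasmic reticulum passed at either time. At ZT0, 9 of the 10 had positive folds (median 0.24), against 7485 of all 15294 genes. Dnajc16 was at 0.40 ± 0.19 (adjusted p = 0.478), Dnajb9 at 0.38 ± 0.31 (adjusted p = 0.626) and Dnajc3, the P58IPK inhibitor of the kinases PERK and PKR, at 0.32 ± 0.16 (adjusted p = 0.479). Dnajb11, the abundant lumenal partner of Hspa5, was at 0.02 ± 0.13 (adjusted p = 0.964). At ZT12 there were 6 positive folds and the median was 0.17. Dnajc10, a disulfide reductase of that compartment, was at -0.11 at ZT0 and -0.18 at ZT12.

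Mitochondrial members had a median of -0.11 at ZT0 and -0.03 at ZT12, and 0 of 7 passed at either time. Dnajc15, a paralog of Dnajc19 at the inner-membrane import motor, was at -0.46 ± 0.36 (adjusted p = 0.614) at ZT0, and Dnajc19 at -0.43 ± 0.31 (adjusted p = 0.596). Dnaja3 was at 0.17 ± 0.15 (adjusted p = 0.648). The share of reads from the mitochondrial genome differed between the flow cells and, on flow cell 1, between groups: the ZT12-SED libraries there held 40.7% to 55.1%, against 32.4% to 36.6% for the exercised hearts at that time. Its part in these values was not tested.

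Among 5 members that act on ribosomes, RNA or chromatin, 4 had negative folds at ZT0 and 4 at ZT12, and 0 passed. Of all 15294 genes, 7809 had negative folds at ZT0 and 6713 at ZT12. Dnajc8 ran from 68.5 to 115 CPM with a median of 86.6 in ZT0-SED and from 63.2 to 76.2 CPM with a median of 66.1 in ZT0-EX. Only ZT0-EX 5 reached into the sedentary range, and the fold was -0.39 ± 0.14 (adjusted p = 0.295). Dnajc9, a histone chaperone, ran from 15.0 to 37.4 CPM with a median of 20.5 in ZT12-SED and from 13.4 to 23.2 CPM with a median of 14.8 in ZT12-EX. Its fold at ZT12 was -0.44 ± 0.18 (adjusted p = 0.262). The highest Dnajc9 values were those of flow cell 1, and without the 3 least correlated libraries its fold was -0.13.

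The 4 tested vesicle members (Dnajc5, Dnajc6, Dnajc13 and Dnajc27) had positive folds at ZT0, against 7485 of all 15294 genes. The largest was that of Dnajc6 at 0.59 ± 0.31 (adjusted p = 0.511), and 0 passed at either time. The remaining class C members included Dnajc7, which bridges HSP70 and HSP90, at 0.00 ± 0.14 (adjusted p = 0.999) at ZT0, and Dnajc24, of the diphthamide pathway, at -0.37 ± 0.19 (adjusted p = 0.494). At an unadjusted p under 0.05 there were 8 of 38 members at ZT0 and 9 of 38 at ZT12, against 10.4% and 16.4% of all genes.

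The HSP70 partners and other cofactors were taken from lists of genes with known roles, which were drawn up with earlier results of these data known. The counts below are therefore descriptions and no independent support. Of 11 HSP70 genes, 2 rose at ZT0 (Hspa1a and Hspa1b) and 3 at ZT12 (the same pair and Hspa8), and 0 fell. Of all genes tested, 1.08% passed at ZT0 and 0.294% at ZT12 in either direction. Reads of this near-identical pair may have been counted to either gene, so each of their values is uncertain. Hspa8, the main cytosolic partner of classes A and B, averaged 1264 ± 206 CPM (SD, n = 6) in ZT0-SED, 1889 ± 54.2 in ZT0-EX, 947 ± 56.3 in ZT12-SED and 1781 ± 389 in ZT12-EX. Its fold was 0.58 ± 0.16 (adjusted p = 0.103) at ZT0 and 0.91 ± 0.16 (adjusted p = 0.00828) at ZT12. The endoplasmic reticulum partner Hspa5 was at 0.24 ± 0.23 (adjusted p = 0.681) at ZT0 and the mitochondrial partner Hspa9 at 0.19 ± 0.18 (adjusted p = 0.663).

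Of 14 HSP110 and nucleotide exchange genes, which release ADP from HSP70, 1 rose at each time, the HSP110 gene Hsph1, by 1.97 ± 0.27 (adjusted p = 0.000126) at ZT0 and 1.73 ± 0.27 (adjusted p = 0.00218) at ZT12. Of 9 further cofactors, 2 rose at ZT0 (Stip1 and Fkbp5) and 2 at ZT12 (Stip1 and Hspb1). The shares of all genes are again 1.08% at ZT0 and 0.294% at ZT12. Stip1, which links HSP70 to HSP90, rose by 0.70 ± 0.15 (adjusted p = 0.0126) at ZT0 and 0.89 ± 0.15 (adjusted p = 0.00311) at ZT12.

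More members differed between flow cells than between exercised and sedentary mice. Of the 38 members, 17 (44.7%) differed between flow cells, 7 higher and 10 lower on flow cell 2, where 68.1% of all genes differed, 34.1% higher and 34% lower. The direction went with the GC content of the transcript: the 7 higher members had 52.6% to 57.4% GC and the 10 lower members 40.6% to 48.9%. Dnajc4, of high GC content, was at 1.48 ± 0.27 and Dnajb9, of low GC content, at -1.14 ± 0.23, whereas Dnajb1 was at 0.22 ± 0.13 (adjusted p = 0.141). Across the 38 members the Spearman correlation of this coefficient with GC content was 0.784, and 0.814 across all genes. The points share the same 24 libraries, so this is a description without a test.

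**Figure D4:**
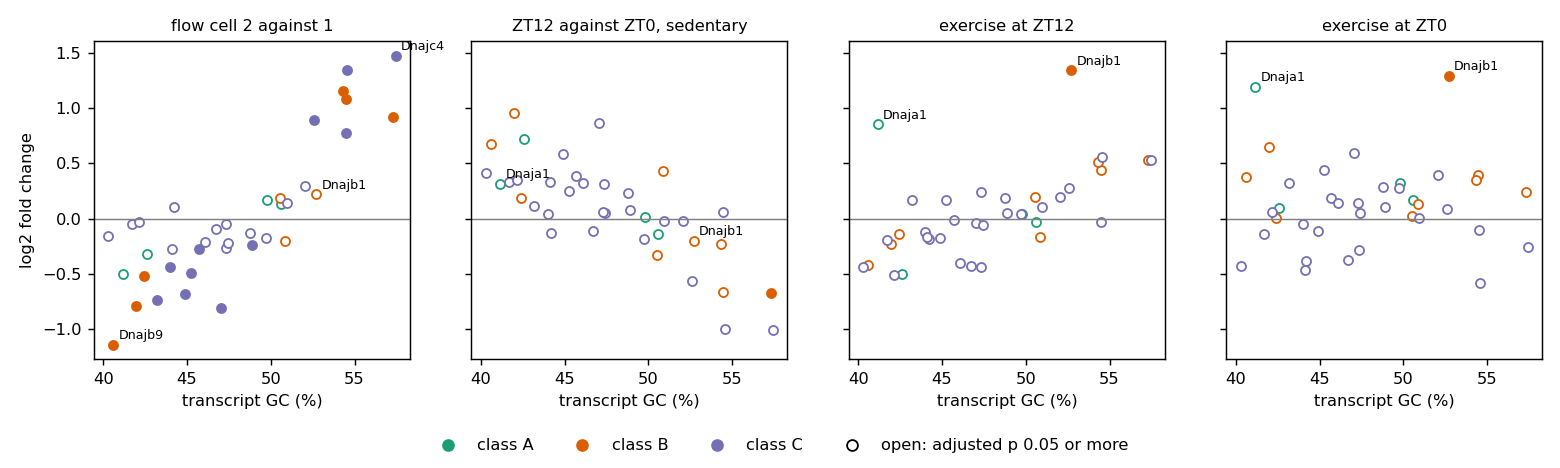
Log2 fold change of the 38 members against transcript GC content in percent for flow cell 2 against 1, ZT12 against ZT0 in sedentary mice, exercise at ZT12 and exercise at ZT0, coloured by class; filled points have an adjusted p under 0.05. The first panel climbs with GC (Spearman 0.784), the second falls (-0.753), the third climbs (0.657) and the last is flat (0.047).

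The same property moved with some of the biological comparisons. For the exercise effect, the correlation with GC content was 0.0474 at ZT0 and 0.657 at ZT12 over the members, and 0.0295 and 0.594 over all genes. At ZT12, 10 of the 12 members of lowest GC content had negative folds and 9 of the 12 of highest GC content had positive folds. When GC content was fitted out of each library, the ZT12 fold of Dnajb1 was 1.13 (adjusted p = 0.0113) and that of Dnaja1 1.19 (adjusted p = 0.00855), whereas that of Dnajb2 went from 0.53 ± 0.19 to 0.04 (adjusted p = 0.949). Dnajb2 ran from 28.7 to 68.7 CPM with a median of 44.4 in ZT12-SED and from 34.8 to 150.0 with a median of 54.7 in ZT12-EX.

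Between times of day in sedentary mice, 1 of 38 members passed, Dnajb2, which was lower at ZT12 by -0.68 ± 0.19 on the log2 scale (adjusted p = 0.0458), where 5.2% of all genes passed. This comparison shares its sedentary mice with both exercise comparisons. In ZT0-SED Dnajb2 ran from 45.3 to 94.3 CPM with a median of 71.2, which overlaps the ZT12-SED values above. On flow cell 1 the ZT12-SED hearts held 28.7, 29.5 and 29.6 CPM and the ZT0-SED hearts 45.3, 55.8 and 76.1, and on flow cell 2 they held 59.2, 64.9 and 68.7 against 66.2, 78.7 and 94.3. With GC content fitted out the value was 0.01 (adjusted p = 0.984), and without the 3 least correlated libraries it was -0.57 (adjusted p = 0.0587) and 0 members passed. Without the libraries with skeletal muscle transcripts 7 members passed, Dnajb2 among them at -0.77 (adjusted p = 0.0307).

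Time-of-day differences of the other members lay mostly on flow cell 1. There, mitochondrial transcripts took 53.4%, 55.1% and 40.7% of counts in the ZT12-SED libraries and 34.2%, 32.4% and 25.4% in the ZT0-SED libraries, and ZT12-SED 1 and 2 are among the 3 least correlated libraries; the part of these properties in the differences was not tested. The size of the difference had a median of 0.644 there against 0.165 on the other flow cell, and it was larger on flow cell 1 for 28 of 38 members. Fitted alone, flow cell 1 called 17 members (11 higher and 6 lower at ZT12) where 43.5% of all genes passed, and flow cell 2 called 0 where 0.231% passed. Dnajc4 held 2.30, 6.99 and 7.14 CPM in ZT12-SED and 18.6, 20.5 and 35.2 CPM in ZT0-SED on flow cell 1. On flow cell 2 it held 32.2, 33.4 and 43.1 CPM in ZT12-SED and 25.7, 39.4 and 49.0 in ZT0-SED, which overlap. Dnajb9 was higher at ZT12 by 1.27 on flow cell 1 and by 0.02 on flow cell 2.

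Dnaja1 went opposite ways on the flow cells. On flow cell 1 the ZT12-SED hearts (147, 154 and 318 CPM) were above the ZT0-SED hearts (78.8, 104 and 106), and on flow cell 2 the ZT12-SED hearts (65.7, 65.9 and 71.1) were below the ZT0-SED hearts (93.9, 101 and 115). The fold over both was 0.32 ± 0.32 (adjusted p = 0.488), and the difference between the flow cells was not tested. With 2 surrogate variables in the fit Dnaja1 was lower at ZT12, at -0.60 (adjusted p = 0.0253). Dnaja2 was the 1 member whose groups did not overlap, at 208 to 230 CPM in ZT0-SED and 232 to 774 CPM in ZT12-SED, as was so for 0.889% of all genes with ZT12 higher. Its fold was 0.72 ± 0.23 (adjusted p = 0.0607). Over the 38 members the time-of-day fold had a Spearman correlation of -0.753 with GC content, against -0.70 over all genes, and its part in these differences was not tested beyond the fit with GC content removed, where 0 members passed.

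**Figure D5:**
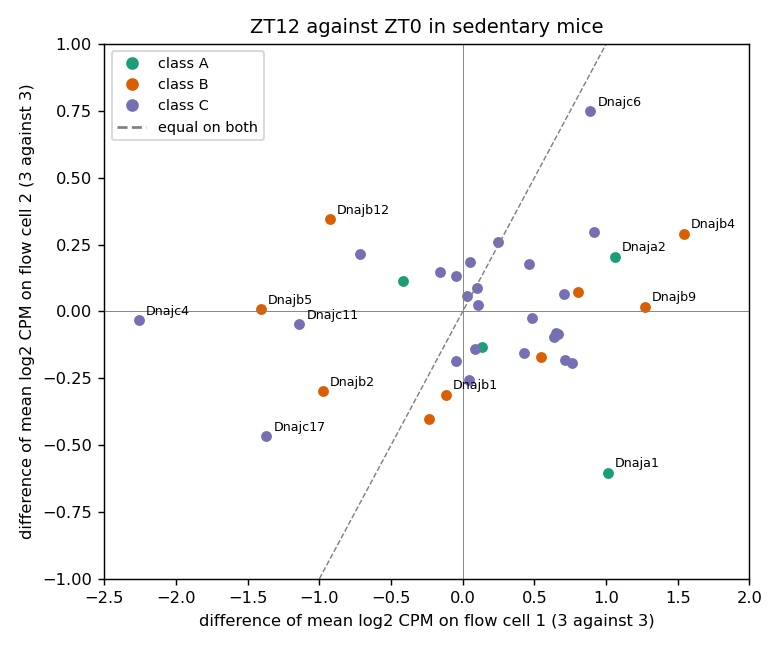
Difference of mean log2 CPM between ZT12-SED and ZT0-SED for each of the 38 members on flow cell 1 (horizontal axis) and flow cell 2 (vertical axis), 3 hearts against 3 on each, coloured by class, with a dashed line where both are equal. The points spread widely along the horizontal axis, down to -2.26 for Dnajc4, and stay within 0.749 of 0 on the vertical axis.

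In exercised mice, 0 of 38 members differed between the times of day (smallest adjusted p = 0.192, for Dnajc10), where 1.65% of all genes passed. At an unadjusted p under 0.05 there were 3 of 38 members, Dnaja3 (-0.34), Dnajb5 (-0.62) and Dnajc10 (0.51), against 14.3% of all genes. Without the 3 least correlated libraries 2 members passed, Dnajb2 at -0.64 (adjusted p = 0.0134) and Dnajc10 at 0.67 (adjusted p = 0.00607). Dnajb1 was at -0.15 ± 0.19 (adjusted p = 0.762) in exercised mice and at -0.20 ± 0.19 (adjusted p = 0.45) in sedentary mice, so no time-of-day difference in its level was detectable in either state.

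The scatter of hearts around the fit also differed among members. The residual SD on the log2 scale, left after terms for group and flow cell and so including any way in which groups differed between flow cells, had a median of 0.329 over the 38 members and of 0.441 over all genes. The steadiest members were Dnajc5 (0.178), Dnajb11 (0.185) and Dnajc1 (0.196), and the most variable Dnajc4 (0.729), Dnajb9 (0.627) and Dnajc15 (0.627). Dnajb1 was at 0.317 and Dnaja1 at 0.574.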

How the data were processed

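The authors deposited whole-number read counts per Ensembl gene for each heart, with no normalization. Reads were processed with Trimmomatic 0.39, HISAT2 2.2.1 and featureCounts 2.0.1 on GRCm39, per the submitters' processing notes. Neither strand use nor the handling of multiply aligned reads is stated in the sources used here. For that reason overlapping and near-identical genes are uncertain. Symbols, exon lengths and GC content came from a GRCm38 annotation matched by Ensembl identifier. Identifiers without a symbol (257) held 0.00128% of counts.

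Counts were fitted with edgeR 4.0.16 (TMM, filterByExpr, robust quasi-likelihood) in R 4.3.3 over all 24 libraries, with group and flow cell as terms, 19 residual degrees of freedom and Benjamini-Hochberg adjustment over 15294 genes. The threshold was an adjusted p of 0.05. Within a flow cell, mean log2 CPM (prior count 2) was subtracted between groups. The members, gene lists and naming rule were chosen with earlier results of these data known. Named were Dnajb1, each member past the threshold, the member of smallest p in each class among those not past it in each exercise comparison, and the 2 most abundant of each class; other names were chosen after their values were seen. No libraries of a group looked like repeats of 1 library (lowest chi-square per degree of freedom 14.7 over 60 pairs). The labels name separate biological replicates. Alternatives included DESeq2 1.42.0, limma-voom, sva 3.50.0, GC offsets, a replicate block and leaving out libraries. A list of further J-domain genes is not reported here.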

Additional observations from a re-analysis of the deposited data

Results flagged for a closer look

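The 10 members picked by the naming rule were checked in each group of 6 hearts for a single heart far from the rest, 40 groups in all, of which chance would give about 1 in 20. Other members were not checked this way. Dnajb4 was low in ZT12-EX 4, at 29.0 CPM against 107 CPM in the next heart and 230 CPM in the highest. That library is among the 3 least correlated with the rest, and its part in this value was not tested. Dnajc8 was high in ZT0-EX 5, at 76.2 CPM, where the other 5 hearts of the group lay between 63.2 and 66.9 CPM. That library is 1 of the 6 with skeletal muscle transcripts, as are ZT0-EX 4 and 6, which held 65.8 and 66.9 CPM.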

How the results depend on the processing

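The rise of Dnajb1 kept its direction in all 39 alternatives at each time of day (1.16 to 1.40 at ZT0 and 1.13 to 1.55 at ZT12) and passed in 37. It missed the threshold on either flow cell alone, where 3 mice stand against 3, and the count of members called was then 0 at both times. Counts of members called otherwise moved as follows. At ZT0, where 1 passed, there were 2 with DESeq2 and with GC offsets, 3 without the 3 least correlated libraries and with the compared groups alone, 5 with 2 surrogate variables (Dnajb1, Dnaja1, Dnajb4, Dnajb2 and Dnaja4), and 1 to 2 when a heart was left out (2 without ZT12-SED 1 or ZT12-EX 4). At ZT12, where 1 passed, there were 2 without the 3 libraries, with GC offsets and with 2 surrogate variables. Averaged over both times, where 2 passed, there was 1 without the flow cell term, on flow cell 1 alone and without the muscle libraries, 3 with GC offsets (with Dnajc3) or without ZT12-EX 4 (with Dnajc8), 4 without the 3 libraries and 7 with 2 surrogate variables. In exercised mice, where 0 differed between times, there were 2 without the 3 libraries, 5 with 2 surrogate variables and 0 to 2 with a heart left out (2 without ZT12-EX 4). In sedentary mice, where 1 differed, there were 0 with DESeq2 size factors, no filter, no flow cell term, GC offsets, the compared groups alone, flow cell 2 alone or without the 3 libraries, 7 without the muscle libraries, 9 with DESeq2 and 17 on flow cell 1 alone. With 2 surrogate variables there was 1, Dnaja1 (-0.604) in place of Dnajb2. Leaving out a heart there gave 0 to 9, with 9 without ZT0-SED 6 or ZT12-EX 4. Dnajb2 passed in 14 of 39 alternatives in that comparison, and GC offsets turned its sign to 0.0115 and that of Dnajb1 to 0.0901. The difference of the exercise effects on Dnajb1 changed sign on flow cell 1 alone (-0.0748), with GC offsets (-0.142) and over single hearts left out (-0.0661 to 0.196). The causes of these moves were not tested. In the sedentary comparison, 43.5% of all genes passed on flow cell 1 alone and 0.231% on flow cell 2 alone. For the other alternatives the share of all genes passing is not given here. The counts therefore do not tell a move of the family from a move of all genes.

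Whether replicate numbers pair the hearts was not settled. Of 36 same-numbered pairs, 14 had a correlation of deviations over 0.1 (range -0.573 to 0.728), and 10 of 24 libraries correlated best with their own number. No rate under chance is given for either count, so they cannot decide it. Replicate 6 of every group had skeletal muscle transcripts. With the replicate block, Dnajb1 was at 1.28 (adjusted p = 0.00171) at ZT0 and 1.34 (adjusted p = 0.00623) at ZT12, and 0 members differed between times in sedentary mice.

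Depth limits the 7 members under the filter, of which Dnajb3 had the most reads, 100 in 24 libraries.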
